A study of Mus musculus with 32 samples.

Results

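The genes described here are the mouse chemokines and chemokine receptors on an Agilent one-colour gene expression array of liver. They were taken by name: every non-control probe whose gene name begins as a CC, CXC, CX3C or XC chemokine or receptor. This gave 75 of 56605 non-control probes, for 54 genes, of which 36 are ligands and 18 are receptors. A probe was used if 1 or more groups had it well above background, the scanner software's own call, on 6 or more of their 8 arrays. By that filter 42 of the 54 genes could be tested (28 ligands and 14 receptors), among 23652 tested genes. The filter keeps a gene that is bright in a single group, so the 42 are not a neutral sample of the family. The other 12 had no such probe and were not tested: Ccl11, Ccl22, Ccl26, Ccl28, Cxcl2, Cxcl3, Cxcl15, Cxcl17, Ccr1, Ccr4, Cxcr1 and Xcr1.

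Livers came from 32 male F1 C57BL/6J mice aged 21 weeks, 8 per group, with 1 array per mouse. Mice ate a normal or a Western diet, each without E171 (controls) or with it, and values are given throughout for the normal diet first and, within a diet, for the controls first. E171 is food-grade titanium dioxide, a white food colour, mixed into the pellets for a daily target dose of 10 mg per kg of body weight. The mothers of the E171 mice had eaten E171 pellets since before mating, the mothers of the controls had not, and the Western diet began at 5 weeks of age and lasted 16 weeks. The group labels call this diet Western and the treatment text calls it high fat. Litters are not given, and littermates need not be independent. The tests still treat the 8 mice of a group as separate samples, so their p-values can be too small. This includes the E171 comparisons, where the mothers were fed E171 too.

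Chemokines are small secreted proteins that form gradients along which leukocytes move. Their receptors are G protein-coupled receptors on the leukocyte surface, and the set of receptors a cell carries decides which gradients it follows. In the liver, ligands for the receptor CCR2 draw monocytes from the blood, CXCR2 ligands draw neutrophils, CXCR3 ligands draw activated T cells, and CXCL13 draws B cells.

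Levels below are log2 of the processed spot intensity after each array was set to a common 75th percentile, so 1 unit is a 2-fold change. Levels of different probes are not compared. The 75th percentile before scaling ran from 249.1 to 489.1 intensity units, and 32164 to 37261 probes per array were well above background, with no saturated spot. Its group means were 366.5 and 356.3 on the normal diet and 430.4 and 402.8 on the Western diet, without and with E171. Scaling therefore lowered Western diet levels relative to normal diet levels, which bears on small diet differences. Arrays of the same group correlated at 0.981 to 0.996, and all 32 were kept. The lowest 75th percentile was that of normal diet E171 replicate 6. Western diet E171 replicate 8 had the fewest probes well above background. The liver label was borne out by the hepatocyte genes: 6 of 6 markers, albumin among them, were well above background on all 32 arrays, while of 5 exocrine pancreas markers Prss1, Pnlip and Cpa1 were not on any array and Cela1 and Cel were on all 32. Each slide of the 4 held 2 mice of every group.

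The stretches upstream of 4 members are shown. Ccl3 had a large fitted rise on the Western diet, from a dim probe, and Cxcl13 had the largest fitted fall. Cxcl10 is a riser with 2 kinds of motif match, and Cxcl1 had the largest SD of any member in normal diet controls. Each is the 250 bases before the RefSeq start, 5′ to 3′ on the gene's strand, GRCm38.p6. Capitals mark matches to the κB motif, the site of NF-κB, on either strand, or to the core of the interferon-stimulated response element, a pair of GAAA runs with any 2 bases between them, also on either strand. Overlapping matches run together.
Cxcl10 (chr5:92348890-92349139, minus strand): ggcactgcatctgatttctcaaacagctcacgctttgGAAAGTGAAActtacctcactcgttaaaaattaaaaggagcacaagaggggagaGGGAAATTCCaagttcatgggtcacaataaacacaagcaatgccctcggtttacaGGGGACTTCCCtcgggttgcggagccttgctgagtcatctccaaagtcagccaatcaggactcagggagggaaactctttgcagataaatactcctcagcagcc
Cxcl1 (chr5:90890995-90891244, plus strand): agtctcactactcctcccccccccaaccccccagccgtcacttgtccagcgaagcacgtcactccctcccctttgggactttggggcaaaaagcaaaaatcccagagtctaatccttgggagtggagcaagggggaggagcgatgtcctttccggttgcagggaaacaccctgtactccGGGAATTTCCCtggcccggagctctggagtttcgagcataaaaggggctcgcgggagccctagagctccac
Ccl3 (chr11:83649379-83649628, minus strand): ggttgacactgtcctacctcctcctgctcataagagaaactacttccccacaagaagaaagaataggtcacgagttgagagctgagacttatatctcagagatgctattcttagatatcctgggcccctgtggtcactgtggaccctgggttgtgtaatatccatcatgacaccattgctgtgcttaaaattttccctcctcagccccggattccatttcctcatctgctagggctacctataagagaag
Cxcl13 (chr5:95956689-95956938, plus strand): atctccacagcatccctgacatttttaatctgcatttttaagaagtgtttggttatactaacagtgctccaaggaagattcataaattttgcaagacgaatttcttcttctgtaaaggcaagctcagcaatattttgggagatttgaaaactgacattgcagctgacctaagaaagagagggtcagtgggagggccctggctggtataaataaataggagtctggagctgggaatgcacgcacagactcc

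Of the 54 genes, 39 had such a sequence in the RefSeq table, and 10 of these (25.6%) held a κB match in it, against 7.25% of all 32851 promoters of the same length. The 10 were Ccl1, Ccl9, Ccl20, Ccr1, Ccr3, Ccr6, Cxcl1, Cxcl2, Cxcl3 and Cxcl10. Cxcl1, Cxcl2 and Cxcl3, neighbouring ligands of the neutrophil receptor CXCR2, carried the same 10 letters, GGGAATTTCC, which began 71, 97 and 73 bases before the start. The interferon element's core was in 3 of the 39 (7.69%: Ccl19, Cxcl10 and Cxcl14), against 2.98% of all promoters. Members are counted as genes, with a match in any promoter of the gene, and the background as single promoters. The shares of members and of all promoters are therefore not strictly alike. Of the 15 members with a sequence that rose on the Western diet in controls, 4 held a κB match (26.7%), as did 3 of the 11 tested members that passed in neither direction (27.3%), 0 of the 4 that fell and 3 of the 9 not tested. The 3 matches to the interferon element's core were all in the 15 that rose (20.0%), with 0 in the 11, 0 in the 4 and 0 in the 9. These are matches of letters and were not tested as binding sites.

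On the Western diet, most measured chemokines and receptors were at a higher level. In mice without E171, 23 of the 42 members rose (54.8%, limma, adjusted p under 0.05), against 18.5% of all tested genes. Another 5 fell (11.9%), against 28.8% of all tested genes. In mice given E171, 26 rose (61.9%) and 5 fell, against 22.2% and 31% of all tested genes. The members' median difference was 1.003 without and 1.029 with E171, where the median over all tested genes was -0.10 in both. In either direction 47.3% and 53.2% of all tested genes passed. Rises of at least 2-fold made up 20 of the 23 and 22 of the 26 (5.45% and 6.59% of all tested genes), and the 1 fall of that size in each arm was Cxcl13 (1.76% and 1.99% of all tested genes). The counts cover 16 ligands and 7 receptors among the 23, and 17 ligands and 9 receptors among the 26. In both counts, Ccl3, Ccl12, Ccl20, Cxcl5, Cxcr2 and Cxcr4 met the background filter only in Western diet groups. For such genes the filter itself favours a rise, so their calls do not stand apart from it. Ccl17 and Ccr10 were kept in the same way and did not pass. All tested genes went through this filter.

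Both diet comparisons called 22 of the risers and the same 5 fallers, Ccl25, Ccl27a, Cxcl11, Cxcl12 and Cxcl13. Ccl9 passed only without E171, and Ccl8, Ccr9, Cxcr5 and Xcl1 only with it. The difference between the 2 comparisons was tested as the interaction of diet and E171, and no member passed (0 of 42, 0 of 23652 genes, limma; 1 member, Ccl9, had an unadjusted p under 0.05). For 11 members every Western diet control lay above every normal diet control (26.2%, against 4.6% of all tested genes), and for 14 members the same held under E171 (33.3%, against 9.14%). Among the 11, Ccl3, Ccl12 and Cxcr4 met the filter only in Western diet groups, as did Ccl3, Cxcl5 and Cxcr4 among the 14. Cxcl12 and Cxcl13 lay wholly below in controls (4.76%, against 5.37%), and no member did under E171 (8.89% of all tested genes did). Of the 28 diet calls in controls 26 kept their direction on each of the 4 slides, with Ccl20 among the exceptions, and all 31 under E171 did.

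The size of a difference on a dim probe depended on how background was treated. With normexp background correction, which adds an offset of 50 to every intensity, 26 of the 28 calls in controls and 26 of the 31 under E171 held, but 13 and 17 of the differences were over 1.5 times smaller. With the authors' deposited values, 26 and 28 held, and 11 and 14 were over 1.5 times smaller. The normexp values are given beside the genes they change, so the order of dim genes by size is not a result.

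**Figure D1:**
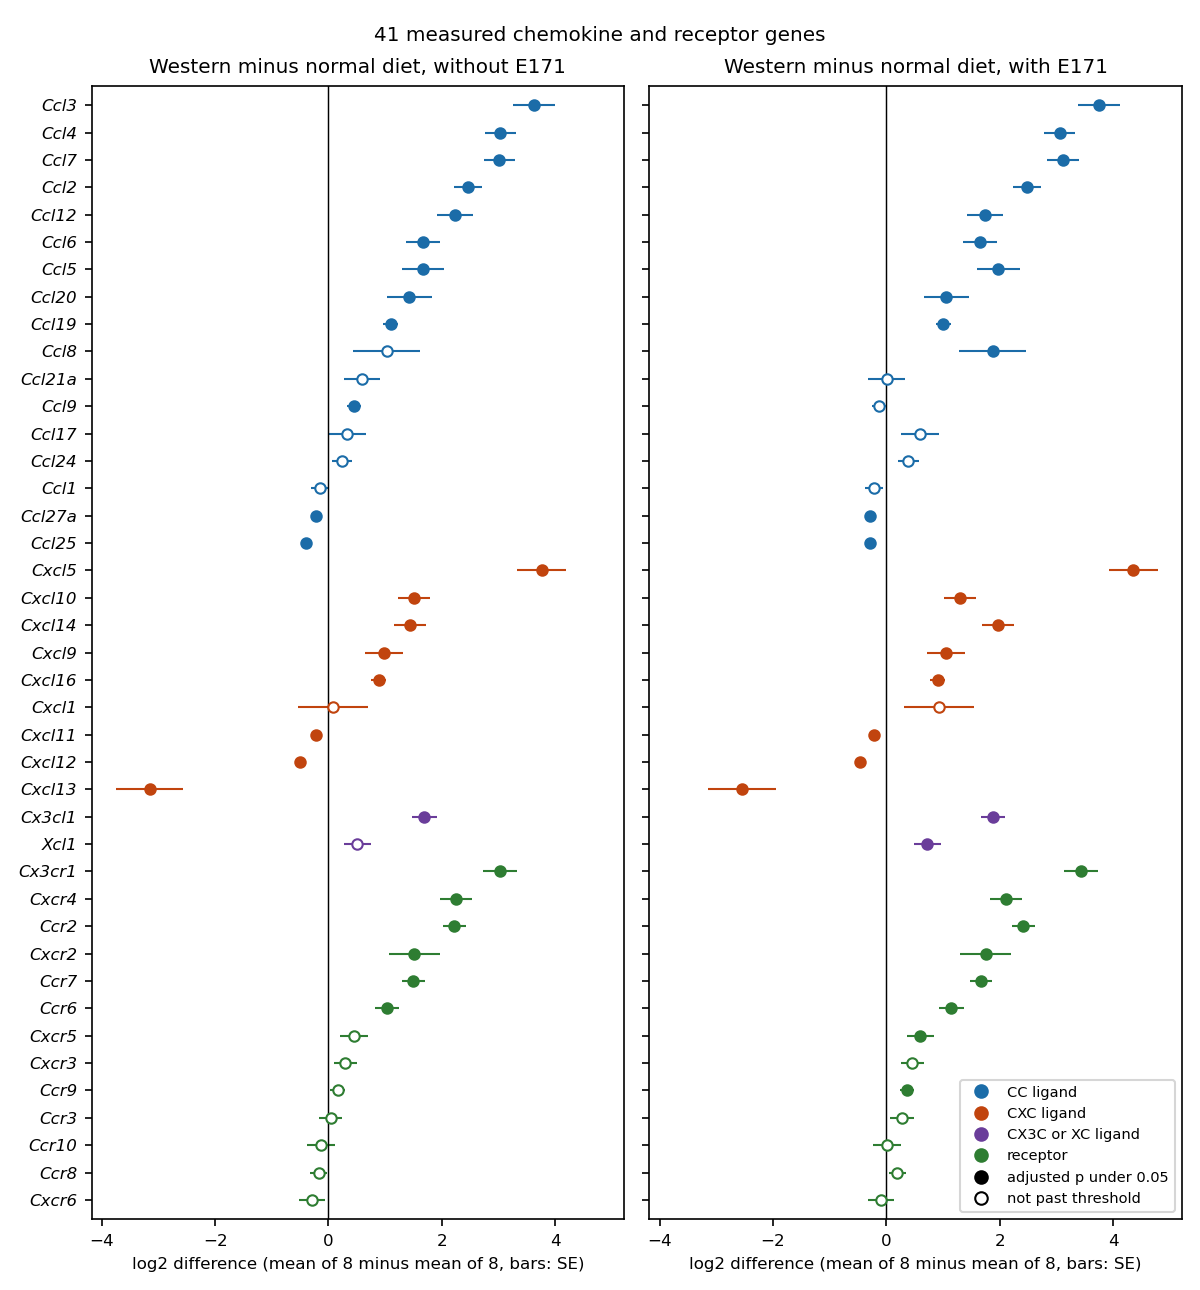
Difference in level between Western and normal diet (log2, mean of 8 mice minus mean of 8 mice, bars: standard error) for 41 of the 42 measured members, without E171 on the left and with E171 on the right. Colours mark CC, CXC and CX3C or XC ligands and receptors, and filled points passed an adjusted p of 0.05; most lie right of 0 and Cxcl13 lies far to the left. Ccl20 in both panels and Cxcl5 under E171 are drawn at their fitted values although no normal diet array was well above background.

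The inflammatory CC ligands, which draw monocytes and other leukocytes, held the largest fitted rises among the CC ligands. Ccl3 (MIP-1α, a CCR1 ligand) ran from 1.38 to 3.80 (median 3.05) in normal diet controls, 1.15 to 3.20 (2.19) in normal diet E171 mice, 4.80 to 7.49 (6.19) in Western diet controls and 5.06 to 7.18 (5.83) in Western diet E171 mice. Every Western diet mouse was above every normal diet mouse of its arm, and the difference was 3.63 ± 0.37 (SE) without E171 (adjusted p = 5.22e-09) and 3.76 ± 0.37 with it (adjusted p = 2.03e-09). Only 4 and 1 of the normal diet arrays were well above background for this probe, against all Western diet arrays. Ccl4 (MIP-1β, an attractant of monocytes and T cells) stood at medians of 4.74, 4.29, 7.67 and 7.24, with ranges of 4.10 to 5.23, 3.48 to 5.00, 6.76 to 8.95 and 6.46 to 8.40. Its groups did not overlap between diets, and it rose by 3.03 ± 0.28 (adjusted p = 5.76e-10) and 3.06 ± 0.28 (adjusted p = 3.75e-10). A second Ccl4 probe gave 3.06 and 3.13. With normexp the differences were 1.01 and 0.92 for Ccl3 and 1.68 and 1.50 for Ccl4, and all passed.

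Ccl2 (MCP-1, the main CCR2 ligand) ran from 7.56 to 9.75 (median 8.22), 6.90 to 7.90 (7.50), 10.25 to 11.24 (10.75) and 9.29 to 10.73 (9.84) in the 4 groups. The diets did not overlap in either arm, and the rise was 2.47 ± 0.25 in both (adjusted p = 3.15e-09 and 2.22e-09), a 5.53-fold and a 5.55-fold difference. Ccl7 (MCP-3, also a CCR2 ligand) ran from 3.48 to 5.05 (4.20), 2.65 to 3.73 (3.03), 6.36 to 7.96 (7.08) and 5.20 to 7.28 (6.12). It rose by 3.01 ± 0.28 (adjusted p = 6.83e-10) and 3.12 ± 0.28 (adjusted p = 2.61e-10), again with no overlap, and by 1.32 and 0.90 with normexp, where it passed. Its probe was well above background on only 2 of the 8 normal diet E171 arrays. Ccl12 (MCP-5, a CCR2 ligand of the mouse) had medians of 2.32, 2.52, 4.76 and 4.15 and ranges of 2.00 to 3.43, 1.98 to 3.42, 4.03 to 5.46 and 3.31 to 5.88. It rose by 2.23 ± 0.32 (adjusted p = 1.38e-06) with no overlap in controls and by 1.74 ± 0.32 (adjusted p = 3.91e-05) with overlap under E171, and it was well above background on only 2 arrays of each normal diet group. With normexp its differences were 0.33 and 0.28, and passed. Ccl8 (MCP-2) spread widely on the Western diet, from 3.55 to 8.06 (5.38) in controls and 2.93 to 8.14 (5.78) under E171, against 3.19 to 5.17 (4.25) and 2.79 to 5.30 (4.15) on the normal diet. Its difference was 1.03 ± 0.60 in controls (adjusted p = 0.156) and 1.88 ± 0.60 under E171 (adjusted p = 0.00922), where it passed, also with normexp, at 0.76.

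Ccl5 (RANTES, a ligand of CCR1 and CCR3) had medians of 8.62, 8.70, 10.18 and 10.61, with ranges of 7.99 to 9.57, 8.17 to 9.52, 9.38 to 12.51 and 9.44 to 12.30. The lowest Western diet mice fell within the normal diet range, and it rose by 1.66 ± 0.38 (adjusted p = 0.000601) and 1.98 ± 0.38 (adjusted p = 6.62e-05). Ccl6 (a CCR1 ligand found in rodents) had medians of 9.35, 9.20, 11.25 and 11.00 and ranges of 8.82 to 10.45, 9.08 to 10.04, 9.38 to 11.80 and 9.96 to 11.83. It rose by 1.67 ± 0.30 (adjusted p = 4.87e-05) and 1.65 ± 0.30 (adjusted p = 4.38e-05). Ccl9 (MIP-1γ, a CCR1 ligand), whose levels are given with the E171 results, differed by 0.44 ± 0.13 in controls (adjusted p = 0.00458) and by -0.13 ± 0.13 under E171 (adjusted p = 0.4).

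Ccl19, which guides CCR7-bearing dendritic and T cells, showed a tight rise. It ran from 7.58 to 8.11 (7.85), 7.41 to 8.30 (7.78), 8.50 to 9.28 (8.94) and 8.31 to 9.17 (8.75), with no overlap between diets. The difference was 1.09 ± 0.14 (adjusted p = 1.33e-07) and 1.01 ± 0.14 (adjusted p = 4.11e-07). Ccl21a, the other CCR7 ligand, differed by 0.59 and 0.01 and did not pass; near-identical copies of this gene exist and the probe need not tell them apart. Ccl20 (the CCR6 ligand) was not well above background on any normal diet array, and was on 6 and 5 of the Western diet arrays. Its levels ran from 1.11 to 2.80 (1.85), 0.79 to 2.87 (1.89), 2.09 to 4.80 (3.26) and 1.68 to 4.02 (3.12). It was at least 1.34-fold higher on the Western diet in controls (adjusted p = 0.00415), a bound set against the dimmest signal that counted as above background. Under E171 the bound gave no fold, with an adjusted p of 0.0267. Both calls were lost with normexp, where the differences were 0.04 and 0.01 (adjusted p = 0.694 and 0.933), and the call under E171 also by quantile normalization (adjusted p = 0.0753).

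The remaining CC ligands moved little. Ccl25, the CCR9 ligand, fell by 0.39 ± 0.10 and 0.28 ± 0.10, and Ccl27a, a CCR10 ligand with a near-identical copy, fell by 0.22 ± 0.09 and 0.28 ± 0.09. Another Ccl27a probe differed by 0.20 and 0.12, the other way, and the mean of its probes gave -0.08 and -0.16, which did not pass. The Ccl27a call in controls was also lost by quantile normalization, by the 75th percentile of probes above background, without the filter and with the deposited values, and the Ccl25 call under E171 with the deposited values. Ccl1, Ccl17 and Ccl24 did not pass in either arm, with differences from -0.22 (Ccl1 under E171) to 0.60 (Ccl17 under E171).

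Among the CXC ligands, the CXCR2 ligand Cxcl5 rose from levels near background. It ran from 0.79 to 3.91 (median 1.70), 0.65 to 2.85 (1.16), 3.79 to 7.04 (5.70) and 4.39 to 6.94 (5.95). Only 1 normal diet control array and no normal diet E171 array was well above background, against all 16 on the Western diet. In controls, where 1 mouse of each diet overlapped, the difference was 3.76 ± 0.43 (adjusted p = 3.54e-08). Under E171 the groups did not overlap, and Cxcl5 was at least 7.30-fold higher on the Western diet (adjusted p = 1.81e-09). With normexp the differences were 0.73 and 0.81, and passed. Cxcl1, a second CXCR2 ligand, differed by 0.08 ± 0.62 in controls and 0.93 ± 0.62 under E171 and did not pass. Cxcl2, also a CXCR2 ligand, could not be tested, and was well above background on 0, 0, 4 and 3 of the 8 arrays of the 4 groups.

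Of the interferon-induced CXCR3 ligands, Cxcl10 and Cxcl9 rose. Cxcl10, whose upstream stretch holds both motifs, had medians of 8.74, 8.33, 10.27 and 9.54 and ranges of 8.02 to 9.27, 7.66 to 9.18, 9.15 to 10.97 and 8.81 to 10.95. The diets overlapped at the edge in both arms, and it rose by 1.51 ± 0.28 (adjusted p = 6.25e-05) and 1.29 ± 0.28 (adjusted p = 0.000316). Cxcl9 ran from 7.91 to 9.70 (8.42), 7.76 to 9.68 (8.71), 8.89 to 11.18 (9.35) and 8.67 to 11.19 (9.66), with much overlap, and rose by 0.98 ± 0.34 (adjusted p = 0.0177) and 1.06 ± 0.34 (adjusted p = 0.00958). Cxcl11, the third of this set, fell by 0.22 ± 0.08 in both arms (adjusted p = 0.032 and 0.0322), but its call did not hold under other scalings: the difference in controls was 0.06 by quantile normalization and 0.02 with the authors' deposited values. The Cxcl11 probe used had medians of 17.66, 17.72, 17.46 and 17.45 in the 4 groups, and whether it measures Cxcl11 is not known. A dimmer Cxcl11 probe differed by -0.07 and -0.10.

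Cxcl13, the B cell ligand of CXCR5, went the other way from the family. It ran from 4.93 to 9.97 (median 6.42) and 4.87 to 7.07 (6.05) on the normal diet, and from 2.14 to 4.76 (4.09) and 1.40 to 6.27 (3.49) on the Western diet. All Western diet controls lay below all normal diet controls, while under E171 1 Western diet mouse reached the normal diet range. It fell by 3.16 ± 0.60 (8.91-fold, adjusted p = 7.4e-05) and by 2.54 ± 0.60 (5.83-fold, adjusted p = 0.000693), and was well above background on 6 of 8 arrays in each Western diet group. With normexp it fell by 1.46 and 0.84, and passed. Cxcl12, the CXCR4 ligand made by liver stroma, fell by 0.51 ± 0.08 (adjusted p = 3.93e-06) and 0.47 ± 0.08 (adjusted p = 1.27e-05). Its second probe differed by -0.22 and -0.16, and by quantile normalization the differences were -0.32 and -0.26, which passed. Cxcl14, a chemokine of epithelial cells and fibroblasts, ran from 6.66 to 9.06 (7.19), 6.82 to 7.26 (7.10), 7.02 to 9.52 (8.92) and 8.49 to 9.66 (9.18). It rose by 1.44 ± 0.28 (adjusted p = 0.000131) and, with no overlap, by 1.97 ± 0.28 (adjusted p = 1.31e-06). Cxcl16, the membrane-bound ligand of CXCR6, rose by 0.89 ± 0.14 and 0.90 ± 0.14.

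The membrane-bound ligand fractalkine, Cx3cl1, ran from 6.13 to 6.66 (6.47), 5.98 to 6.75 (6.33), 7.27 to 9.33 (8.16) and 7.39 to 9.08 (8.26). No Western diet mouse reached down to the normal diet range, and the rise was 1.69 ± 0.22 (adjusted p = 2.31e-07) and 1.88 ± 0.22 (adjusted p = 2.91e-08). A dimmer Cx3cl1 probe, which lies elsewhere in the gene, differed by -0.28 and -0.30, and the mean of both probes by 0.71 and 0.79, which passed. In mm9, the build of the array annotation, the bright probe lies at chr8:97306185-97306244 and the dimmer one is split over chr8:97296213-97301245. Xcl1, the XCR1 ligand, rose under E171 by 0.72 ± 0.24 and differed by 0.51 ± 0.24 in controls, where it did not pass. With normexp the call under E171 was lost, at 0.10 (adjusted p = 0.266).

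**Figure D2:**
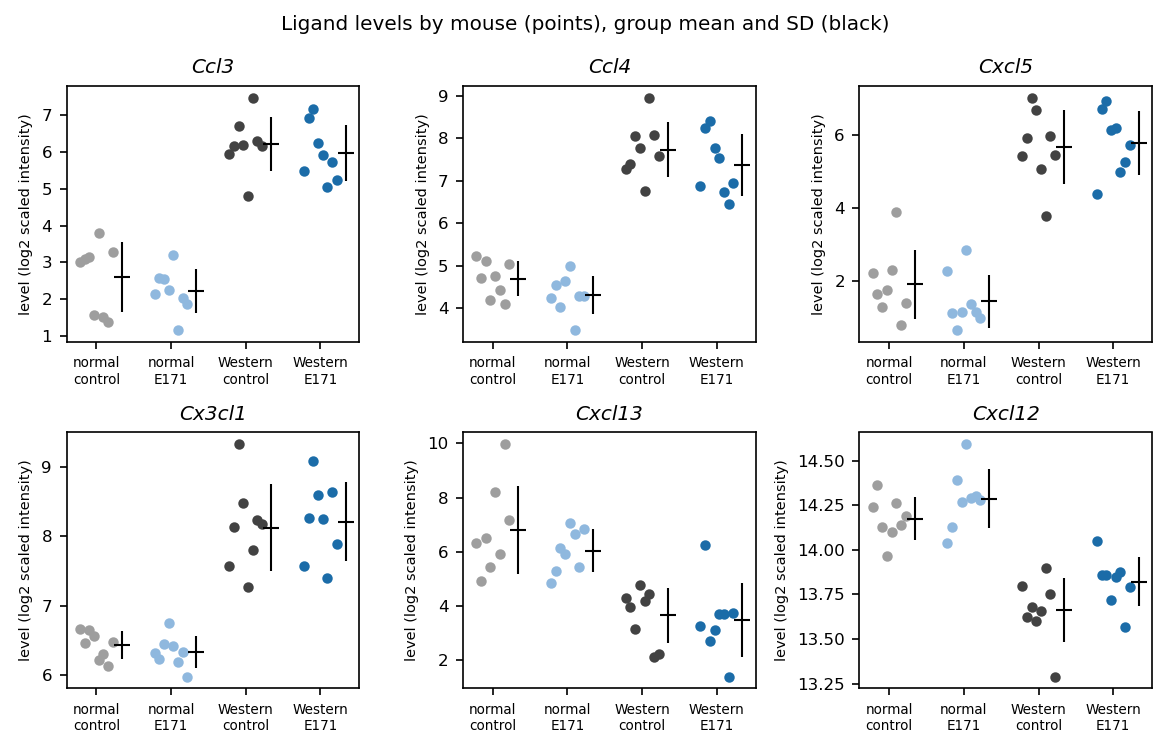
Levels of 6 ligands (log2 scaled intensity) in each of the 32 mice, by group, with the group mean and SD in black. Ccl3, Ccl4 and Cx3cl1 separate the diets completely in both arms, Cxcl5 does so under E171, and Cxcl13 and Cxcl12 are lower on the Western diet.

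Receptors carried by monocytes and macrophages rose. Cx3cr1, the fractalkine receptor, ran from 5.52 to 6.80 (median 6.34), 4.88 to 6.69 (6.22), 7.77 to 10.39 (9.32) and 8.70 to 10.34 (9.47), with the diets fully apart. It rose by 3.03 ± 0.30 (adjusted p = 2.41e-09) and 3.43 ± 0.30 (adjusted p = 1.74e-10), and a second probe gave 2.92 and 3.18. Ccr2, the receptor for Ccl2, Ccl7 and Ccl12, ran from 4.36 to 5.00 (4.70), 4.02 to 5.24 (4.66), 5.76 to 7.52 (6.91) and 6.11 to 7.56 (7.23). It was higher in every Western diet mouse, by 2.22 ± 0.20 (adjusted p = 5.32e-10) and 2.42 ± 0.20 (adjusted p = 7.19e-11), and by 1.06 and 1.18 with normexp, where it passed. Ccr1, the receptor for Ccl6 and Ccl9, was not well above background on any array.

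Among receptors of neutrophils and lymphocytes, Cxcr4, Cxcr2, Ccr7 and Ccr6 had fitted rises of 2-fold or more, which for Cxcr2 did not hold with normexp. Others, given in the next paragraphs, passed only under E171 or did not rise in either arm. Cxcr4, the Cxcl12 receptor, ran from 1.84 to 4.25 (3.34), 1.90 to 3.66 (2.92), 4.75 to 6.00 (5.46) and 4.25 to 5.94 (4.98). With the diets apart, it rose by 2.25 ± 0.28 (adjusted p = 1.24e-07) and 2.11 ± 0.28 (adjusted p = 2.67e-07), against the fall of its ligand. It was well above background on 5 and 1 of the normal diet arrays, and with normexp the differences were 0.43 and 0.35, which passed. Cxcr2, the neutrophil receptor for Cxcl1 and Cxcl5, ran from 0.59 to 4.41 (2.10), 0.72 to 3.49 (2.27), 3.30 to 4.26 (3.70) and 3.27 to 4.68 (3.88), with overlap. It rose by 1.52 ± 0.46 (adjusted p = 0.0071) and 1.75 ± 0.46 (adjusted p = 0.00188), on 3 and 2 normal diet arrays above background, and with normexp background correction the differences were 0.03 and 0.17 and did not pass. Ccr7, the receptor for Ccl19, ran from 5.24 to 6.29 (5.65), 5.10 to 6.45 (5.78), 6.39 to 7.90 (7.23) and 6.76 to 7.88 (7.41) and separated the diets. Its rise was 1.50 ± 0.20 (adjusted p = 4.57e-07) and 1.67 ± 0.20 (adjusted p = 5.74e-08), and 0.89 and 1.02 with normexp, where it passed. Ccr6, the Ccl20 receptor, ran from 2.92 to 4.34 (3.66), 3.31 to 4.75 (4.09), 4.04 to 5.28 (4.72) and 4.83 to 5.62 (5.24), and rose by 1.03 ± 0.21 (adjusted p = 0.000215) and, with the groups apart, by 1.15 ± 0.21 (adjusted p = 4.58e-05). With normexp its differences were 0.17 and 0.30, and passed (adjusted p = 0.0471 and 0.000989).

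The other 7 receptors moved by less than 2-fold, and 2 of them passed under E171. Ccr9, a gut-homing receptor, ran from 3.83 to 4.83 (4.59), 4.03 to 4.72 (4.39), 4.21 to 5.11 (4.63) and 4.58 to 4.89 (4.79), and differed by 0.16 ± 0.13 (adjusted p = 0.301) and 0.37 ± 0.13 (adjusted p = 0.0136). With normexp the call under E171 was lost, at 0.05 (adjusted p = 0.528). Cxcr5, the B cell receptor for Cxcl13, ran from 2.70 to 3.94 (3.09), 2.58 to 4.14 (3.24), 2.54 to 4.22 (3.88) and 3.31 to 4.50 (3.83). It differed by 0.45 ± 0.24 (adjusted p = 0.13) and 0.60 ± 0.24 (adjusted p = 0.0381), where it passed. That call was lost in 4 settings: normexp (0.03), quantile normalization, the deposited values and no filter. Cxcr3, the receptor for Cxcl9 and Cxcl10, ran from 5.07 to 6.35 (5.85), 5.49 to 6.23 (5.83), 5.18 to 6.51 (6.13) and 5.83 to 7.03 (6.12), with differences of 0.30 ± 0.20 (adjusted p = 0.227) and 0.46 ± 0.20 (adjusted p = 0.0541). Cxcr6, carried by liver-resident T and NK cells, ran from 6.33 to 7.60 (7.14), 6.77 to 7.78 (7.40), 6.10 to 7.37 (6.74) and 6.59 to 8.04 (6.92), with differences of -0.29 ± 0.23 and -0.10 ± 0.23 (adjusted p = 0.302 and 0.738).

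The remaining receptors were dim in all groups and overlapped throughout. Ccr3, an eosinophil receptor, ran from 2.95 to 3.69 (3.39), 2.24 to 4.10 (3.04), 2.46 to 3.89 (3.45) and 2.95 to 3.72 (3.37), and differed by 0.04 ± 0.21 and 0.27 ± 0.21 (adjusted p = 0.895 and 0.266). Ccr8, found on regulatory T cells, ran from 3.24 to 3.89 (3.48), 2.52 to 3.80 (3.46), 3.10 to 3.68 (3.35) and 3.27 to 3.64 (3.50), and differed by -0.17 ± 0.14 and 0.20 ± 0.14 (adjusted p = 0.327 and 0.249). Ccr10, the receptor for Ccl27a, ran from 2.69 to 3.92 (3.33), 2.30 to 3.98 (3.24), 2.76 to 3.52 (3.22) and 1.81 to 4.22 (3.28), and differed by -0.13 ± 0.25 and 0.01 ± 0.25 (adjusted p = 0.694 and 0.976). All 6 differences were smaller than 2 standard errors. With normexp, Ccr8 and Ccr10 passed as lower in controls, at -0.18 each (adjusted p = 0.0376 and 0.0446).

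**Figure D3:**
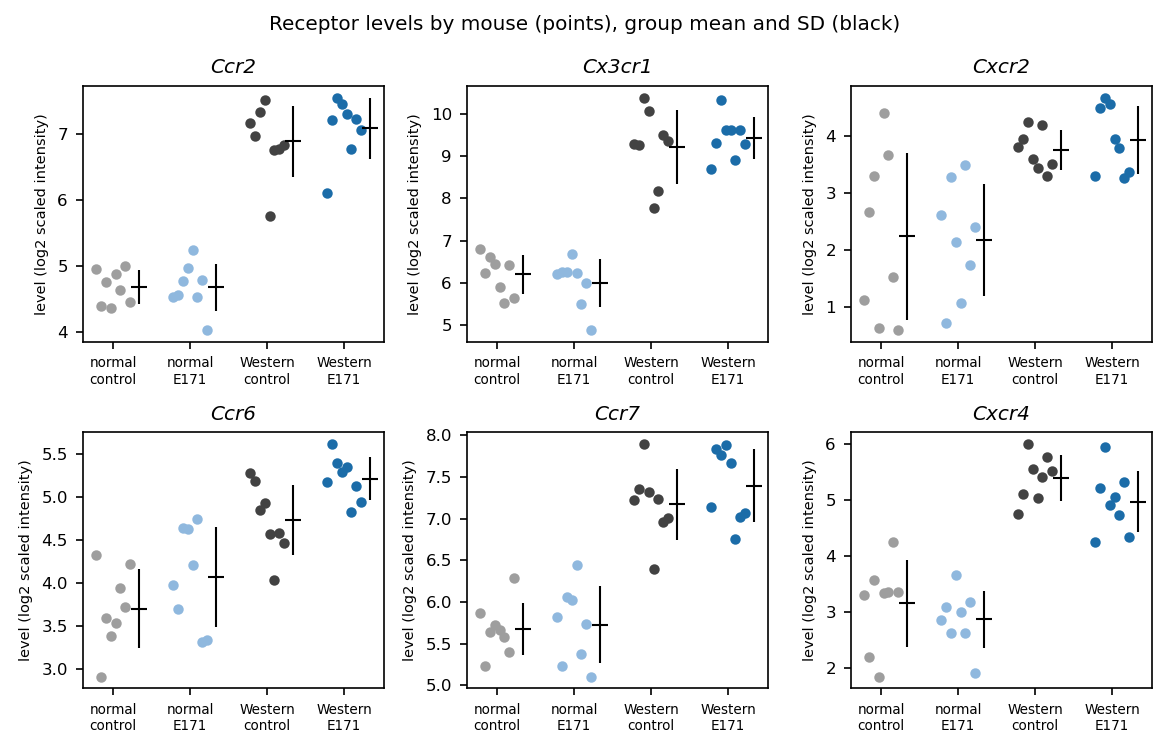
Levels of 6 receptors (log2 scaled intensity) in each of the 32 mice, by group, with the group mean and SD in black. Ccr2, Cx3cr1, Ccr7 and Cxcr4 separate the diets completely in both arms; Cxcr2 overlaps in both arms and Ccr6 in controls.

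E171 moved few members. On the normal diet none passed, of 42 members or of 23652 genes (limma), and 3 members, all lower, had an unadjusted p under 0.05. Averaged over both diets, 2 members fell (4.76%, against 0.182% of all tested genes) and none rose (0.186% of all tested genes did). They were Ccl2 and Ccl7, both ligands of CCR2 and neighbours on chromosome 11, where their probes lie at chr11:81850650-81850709 and chr11:81860656-81860715 (mm9). The members' median E171 difference was -0.00, against 0.01 over all tested genes.

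Ccl2 means were 8.31 ± 0.70 (SD, n = 8) in normal diet controls and 7.43 ± 0.38 with E171, and 10.78 ± 0.36 and 9.90 ± 0.54 on the Western diet. The E171 difference was -0.88 ± 0.25 (SE) on the normal diet and -0.87 ± 0.25 on the Western diet, neither past the threshold alone (adjusted p = 0.878 and 0.0989). Averaged over both it was -0.87 ± 0.17, a 1.83-fold lower level (adjusted p = 0.0185). Ccl7 means were 4.17 ± 0.54 and 3.09 ± 0.41 on the normal diet, and 7.19 ± 0.57 and 6.20 ± 0.74 on the Western diet. Its difference was -1.09 ± 0.28 and -0.99 ± 0.28 (adjusted p = 0.878 and 0.0975), and over both diets -1.04 ± 0.20, a 2.05-fold lower level (adjusted p = 0.0131). Groups with and without E171 overlapped for both genes on both diets. On every slide the E171 difference over both diets was below 0, from -1.31 to -0.59 for Ccl2 and from -1.25 to -0.86 for Ccl7. Leaving out any 1 of the 32 mice kept both calls, with adjusted p from 0.00871 to 0.0377 for Ccl2 and from 0.00401 to 0.0275 for Ccl7. With normexp background correction, the Ccl7 difference over both diets was -0.37 and did not pass (adjusted p = 0.1). The Ccl7 probe was well above background on only 2 of the 8 normal diet E171 arrays. Over the alternative settings its E171 difference ran from -1.119 to -0.154 on the normal diet and from -1.025 to -0.579 on the Western diet. The size of the Ccl7 fall on the normal diet is therefore not settled.

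Ccl12, another CCR2 ligand, Ccl8 and the receptor gene Ccr2 did not fall with them past the threshold. Ccl12 differed by -0.21 ± 0.23, Ccl8 by 0.13 ± 0.42 and Ccr2 by 0.10 ± 0.14 (adjusted p = 0.792, 0.944 and 0.858). On the Western diet the fall in Ccl2 was smaller than the rise the diet brought: all Western diet E171 mice lay above all normal diet mice except 1 control at 9.75, which lay above 4 of them. For Ccl7 no Western diet mouse was as low as the highest normal diet mouse, at 5.05. No monocyte, Kupffer cell or lipid-associated macrophage marker passed in any E171 comparison, and the summed level of the 6 monocyte markers had medians of 3181 and 2968 intensity units on the normal diet and 7566 and 6541 on the Western diet, without and with E171. Their part in the Ccl2 and Ccl7 result was not tested.

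On the Western diet alone, 1 member fell with E171 (2.38%, against 0.169% of all tested genes) and none rose (0.211% of all tested genes did). This was Ccl9, at 11.24 to 12.11 (median 11.58), 11.50 to 11.84 (11.61), 11.35 to 12.51 (12.03) and 11.26 to 11.68 (11.54) in the 4 groups. The difference was -0.55 ± 0.13 (1.46-fold, adjusted p = 0.0409), and the groups overlapped through 1 low Western diet control. On the normal diet it was 0.02 ± 0.13, but the difference between diets did not pass (interaction -0.57 ± 0.18, adjusted p = 0.803). The call was lost when any of 14 of the 32 mice was left out (replicates 2, 3 and 5 of normal diet E171; 3, 4, 5 and 7 of Western diet control; 1, 2, 3, 4, 5, 7 and 8 of Western diet E171), with a largest adjusted p of 0.129.

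Cxcl1 had the lowest E171 difference of the members, -1.26 ± 0.44 over both diets, but did not pass (adjusted p = 0.232). Its levels in normal diet controls ran from 8.26 to 13.93 (median 10.44), an SD of 2.07 that was the largest of any member in any group, where the members' median SD lay between 0.45 and 0.48 in the 4 groups. In the other groups it ran from 8.17 to 10.99 (8.88), 9.65 to 12.87 (10.65) and 9.54 to 10.63 (9.88), so that the Western diet E171 mice were the most alike. Ccr6 had the highest difference, 0.42 ± 0.15 (adjusted p = 0.254).

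**Figure D4:**
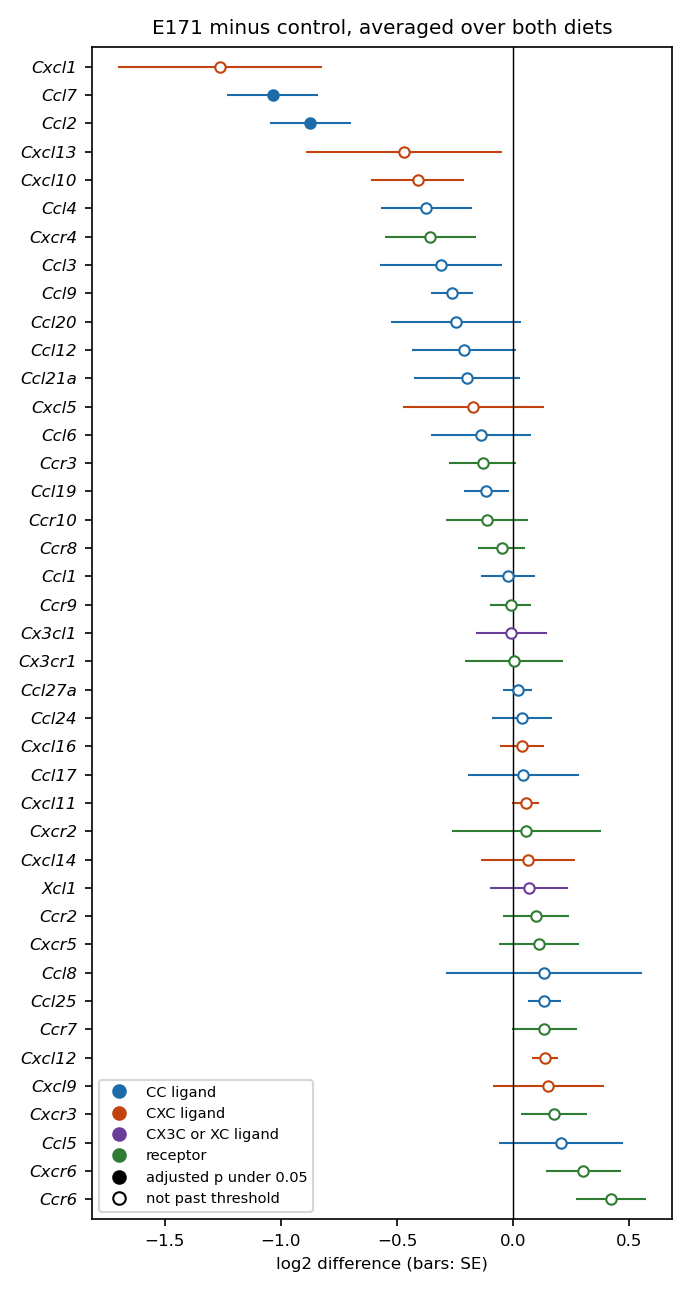
Difference in level between E171 and control mice averaged over both diets (log2, bars: standard error) for 41 of the 42 measured members, ordered by size. Colours mark the classes of ligand and the receptors. Only Ccl7 and Ccl2 are filled, passing an adjusted p of 0.05; Cxcl1 lies further left with a wider error.

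**Figure D5:**
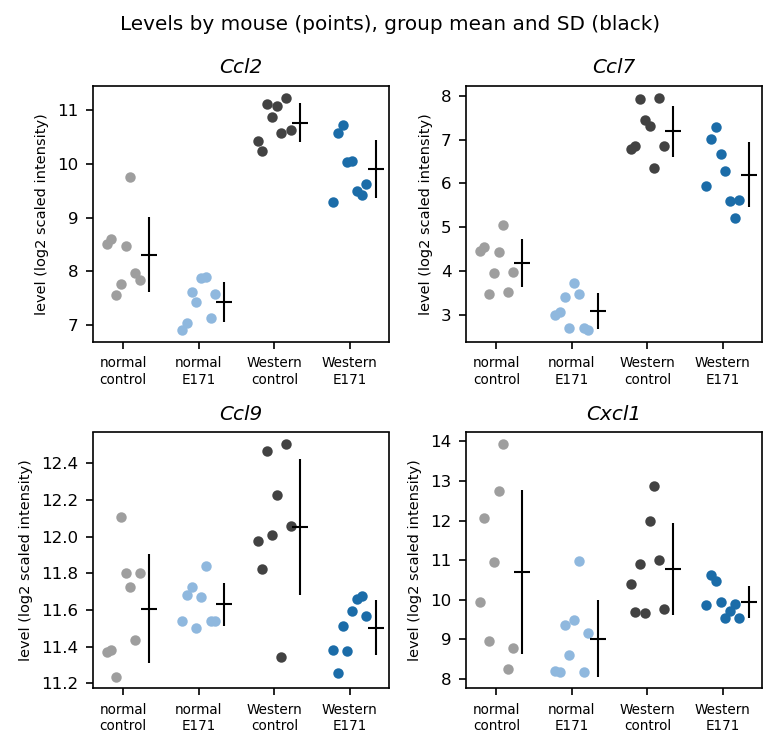
Levels of Ccl2, Ccl7, Ccl9 and Cxcl1 (log2 scaled intensity) in each of the 32 mice, by group, with the group mean and SD in black. Ccl2 and Ccl7 are lower with E171 on each diet, Ccl9 on the Western diet, and Cxcl1 spreads most in normal diet controls.

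Ligand and receptor levels were also set against each other among the 8 mice of each Western diet group, for 16 pairs fixed as ligand and receptor or as neighbouring ligands, 32 correlations in all. Of these, 11 had an adjusted p of r under 0.05 in an exact permutation test over 40320 pairings, 3 in controls and 8 under E171. By rho, 3 of the 32 had an adjusted p under 0.05. Other gene pairs were not correlated, so how often unrelated genes pass among these mice is not known. The counts are therefore not a result about ligand and receptor pairs as a class. Ccl2 and its receptor Ccr2 gave r = -0.222 and rho = -0.0952 in controls (exact adjusted p = 0.786 and 0.896) and r = 0.7 and rho = 0.714 under E171 (exact adjusted p = 0.0893 and 0.132). Without the 2 mice farthest from the median, r was -0.231 and 0.755. Here and below, that median is of the first gene named in the pair, and extremes of the other gene stay in. Cx3cl1 and Cx3cr1 gave r = 0.859 and rho = 0.929 in controls (exact adjusted p = 0.0223 and 0.0238), and r = 0.939 and rho = 0.857 under E171 (exact adjusted p = 0.0124 and 0.0615). Without the 2 mice farthest from the median, r was 0.664 and 0.9. Ccl3 and Ccl4 gave r = 0.947 and 0.907 (exact adjusted p = 0.0124 and 0.0163), and rho = 0.952 and 0.833 (exact adjusted p = 0.0183 and 0.0615), with r = 0.81 and 0.698 without the farthest 2. Ccl2 and Ccl7 gave r = 0.836 and 0.921 (exact adjusted p = 0.0423 and 0.0145), and rho = 0.81 and 0.833 (exact adjusted p = 0.0633 and 0.0615), with r = 0.845 and 0.764 without the farthest 2. Ccl7 and Ccl12 gave r = -0.0995 and rho = -0.119 in controls (exact adjusted p = 0.835 and 0.896) but r = 0.974 and rho = 0.976 under E171 (exact adjusted p = 0.00238 and 0.0127), with r = -0.649 and 0.976 without the farthest 2. The difference between the groups was not tested. Cxcl10 and Cxcr3 under E171 rested on the 2 mice farthest from the median of Cxcl10, with r = 0.857 (rho = 0.81, exact adjusted p = 0.0289 and 0.0633) that was 0.27 without them.

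Genes that act beside chemokines are counted against the share of all tested genes that rose (18.5% in controls, 22.2% under E171) or fell (28.8% and 31%). Of 20 genes of receptor signalling and cell movement, 14 rose and 2 fell in each arm, with medians of 0.35 and 0.30. The largest in controls were Rgs1, a brake on receptor signalling, at 1.61 ± 0.31, Pik3cg, the kinase that receptors drive through G proteins, at 1.53 ± 0.15, and Dock2, which activates Rac in moving leukocytes, at 1.28 ± 0.19. Of 11 measured adhesion genes, 7 rose and 1 fell in controls and 8 rose and 1 fell under E171 (medians 0.73 and 0.69). They were led by Vcam1, the endothelial partner of integrin α4, at 1.58 ± 0.16 in controls, Itga4, that integrin, at 1.46 ± 0.17, and Itgb2 at 1.41 ± 0.21. Among the 7 atypical receptors and platelet chemokines outside the name rule, 3 rose and 1 fell in controls, and 6 rose and 1 fell under E171 (medians 0.37 and 0.67). Pf4, a platelet chemokine, rose by 1.55 ± 0.20 in controls, Ackr1, which holds chemokines on vessel walls, by 0.54 ± 0.13, and Ackr4, a scavenger of Ccl19, Ccl21 and Ccl25, fell by 0.52 ± 0.14.

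Of 7 measured proteases that cut or release chemokines, 6 rose and 1 fell in controls and 4 rose under E171. The macrophage elastase Mmp12 rose by 5.62 ± 0.39 in controls, where 2 of 8 normal diet arrays were well above background, and was at least 27.8-fold higher under E171, where none was. The collagenase Mmp13 rose by 4.01 ± 0.39 in controls, also with 2 of 8 normal diet arrays above background, and the gelatinase Mmp2, detected on all arrays, by 1.48 ± 0.25. The inducers of chemokine genes did not follow: of 11 measured, 1 rose and 1 fell in controls and 2 rose and 2 fell under E171 (medians 0.07 and -0.01). Tnf, the cytokine that induces many chemokines, fell by 1.57 ± 0.22 in controls and 1.37 ± 0.22 under E171, and Nfkb1, an NF-κB subunit, rose by 0.22 ± 0.07 in controls. Il1b rose by 0.86 ± 0.33 under E171. No gene of these 5 lists passed in any E171 comparison.

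Markers of leukocytes moved with the diet beside the chemokines. Of 6 monocyte markers, 5 rose in each arm (medians 1.66 and 1.69), led in controls by Chil3 at 2.90 ± 0.29. Their summed level ran from 2380 to 3665, 2416 to 4003, 4554 to 9541 and 5237 to 10350 intensity units. Such a sum, here and for the lists below, follows its brightest probes and need not move with the count of markers. Of 9 markers of lipid-associated macrophages, 7 rose and 1 fell in each arm (medians 1.92 and 2.10), among them Gpnmb, Mmp12 and Trem2. Gpnmb was not well above background on any normal diet array and was on all Western diet arrays, at least 51-fold higher in controls and 47.6-fold under E171, and Trem2, detected on all arrays, rose by 3.98 ± 0.32 in controls. The 1 that fell, named after its value was seen, was Fabp5, by 2.49 ± 0.30. Their sum did not rise, with medians of 39550, 33960, 28920 and 27580 and a range in normal diet controls of 16310 to 80660. Of 10 Kupffer cell markers, 6 rose and 1 fell, with sums of 12050 to 43250, 16630 to 32540, 20630 to 50820 and 26020 to 65490. The fall was in Cd163, a scavenger receptor, by 1.76 in controls and 1.14 under E171, and the complement gene C1qb rose by 1.25 and 1.28. The Kupffer cell markers Clec4f, Timd4 and Marco, named after their values were seen, did not pass in either arm. They differed by 0.103 and 0.115, by -0.505 and -0.304, and by -0.089 and -0.513.

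The shares of all tested genes that rose and fell, 18.5% and 28.8% in controls and 22.2% and 31% under E171, stand beside the counts of the lymphoid and neutrophil markers too. Of 6 measured neutrophil markers, 1 rose and 1 fell in controls and 3 rose and 2 fell under E171, with sums of 33340 to 41030, 34520 to 44340, 28890 to 36310 and 28340 to 36970. Of 10 measured T and NK cell markers, 2 rose and 2 fell in controls and 4 rose and 3 fell under E171, with sums of 14650 to 18540, 14670 to 20140, 9006 to 19900 and 9269 to 13760. Ncr1, of NK cells, was not well above background on any array. Of 6 B cell markers, 1 rose in each arm and 1 fell in controls, with sums of 509.5 to 737.2, 599.4 to 872.6, 560 to 897.6 and 780.8 to 1020. Of 5 markers each, 3 rose and 1 fell for dendritic cells and 3 rose for stellate cells in both arms, 2 rose and 2 fell for endothelial cells in both arms, and 3 and 4 rose for cholangiocytes. Their summed levels had lowest and highest values over all mice of 55960 and 92250 for dendritic cells, 18560 and 41890 for stellate cells, 10820 and 17510 for endothelial cells and 294.6 and 1300 for cholangiocytes. Group medians of these sums were 74450, 74530, 63060 and 64010 for dendritic cells and 23350, 23780, 31680 and 34910 for stellate cells. For endothelial cells they were 15220, 16260, 13870 and 13660, and for cholangiocytes 538.9, 438.8, 615.7 and 640. All 6 hepatocyte markers fell in both arms (medians -0.41 and -0.55), with sums of 1086000 to 1323000, 1065000 to 1422000, 778900 to 1215000 and 811800 to 1131000. The part of these markers in the chemokine results was not tested, and in whole liver more cells of a type and more RNA per cell cannot be told apart.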

How the data were processed

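Liver RNA of 32 mice was measured on one-colour arrays. Per the submitters' processing notes, Agilent Feature Extraction 10.10.1.1 and limma were used; the deposited scanner files hold intensity per spot, already background-corrected by that software per the file headers, and the authors' deposited table holds log2 values, used here only as an alternative because its normalization is not given in the sources used here. Log2 processed intensity was scaled per array to its 75th percentile. Replicate spots were averaged and the brightest kept probe stood for a gene (35777 probes kept). limma 3.58.1 (lmFit, eBayes; R 4.3.3) was fitted to all 4 groups with 6 contrasts, and p-values were adjusted by Benjamini-Hochberg over 23652 genes at 0.05, two-sided. A probe below background on all arrays of a group gives a bound. The procedure was tested on simulated data. Gene names came from the array files and RefSeq. Number of arrays limits the precision.

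The members, lists and tests were chosen with earlier results of these data known. Group values are given for members that changed at least 2-fold with diet, for those called with E171 and for every measured receptor; genes of a list are named from the 3 largest changes. Alternatives were 11 planned settings and, chosen after seeing the data, leaving out each mouse in turn. The result of 1 measured member is not reported here by name, though the counts include it.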

Additional observations from a re-analysis of the deposited data

Results flagged for a closer look

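Among the 124 combinations of 31 genes and 4 groups, 7 held 1 mouse far from the other 7 by Dixon's gap test at the 95% level; chance alone would mark about 6.2 of the 124. Western diet control replicate 5 was lowest for Ccl6, at 9.38 against a next level of 10.79, and for Ccr2, at 5.76 against 6.76. Other low mice of that group were replicate 7 for Ccr3, at 2.46, and replicate 1 for Cxcr3, at 5.18, and its replicate 6 was high for Cxcl9, at 11.18 against 9.59. On the normal diet, control replicate 5 was high for Cxcl14, at 9.06 against 7.27, and E171 replicate 5 was high for Ccl6, at 10.04 against 9.40.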

How the results depend on the processing

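Of the diet calls, 21 of 23 rises in controls and 21 of 26 under E171 held in all settings, as did 3 of 5 and 2 of 5 falls. Falls in controls (5) numbered 7 with normexp, where Ccr8 and Ccr10 joined, 3 by quantile normalization, by the 75th percentile of probes above background everywhere, in the deposited table, without the filter and with the mean of probes, and 3 to 5 when 1 mouse was left out (3 without normal diet control replicate 6, or Western diet control replicate 3 or 4). Falls under E171 (5) numbered 3 in the deposited table and with the mean of probes, and 3 to 6 with 1 mouse left out (3 without Western diet E171 replicate 3). The E171 falls on the Western diet (1) numbered 2 with normexp and in the deposited table, 0 by quantile normalization, by the 75th percentile of probes above background, without the filter and with only the 2 groups compared, and 0 to 1 with 1 mouse left out. The E171 falls over both diets (2) numbered 1 with normexp. Cxcl11 in controls reversed to 0.06 by quantile normalization and 0.02 in the deposited table. The causes were not tested. Over all genes the rises were 39.2% of diet calls in controls and 54.5% in the deposited table, and 41.7% and 51.1% under E171.

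Dim probes limit the rest: with normexp 13 of 28 and 17 of 31 called diet differences were over 1.5 times smaller, and Ccl20, Cxcr2, Ccr9, Cxcr5 and Xcl1 lost calls. Same-numbered mice correlated at -0.298 to 0.571 (median 0.068), and 23 of 48 pairs exceeded 0.1. Of 32 mice, 8 correlated best with a mouse of their own number. What chance would give was not computed, so these values do not decide whether the numbers pair the mice. With the replicate block the counts were 23 higher and 5 lower in controls, 27 and 5 under E171, 0 and 2 for E171 over both diets and 0 and 1 on the Western diet.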
